A study of Nothobranchius furzeri with 6 samples.

Results

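Cytochrome P450 proteins with the heme-binding signature were read from liver ribosome footprints of the killifish *Nothobranchius furzeri*, whose life span is short. Each of the 22757 coding sequences in the deposited data was translated from its start codon, and a protein of 400 to 600 residues was taken as a member when it held the P450 cysteine signature, a run of 10 residues. In the one-letter code the signature is F, then S, G, N or H, any residue, G or D, any residue, R, K, H, P or T, any residue, the cysteine C, then L, I, V, M, F, A or P, and last G, A or D. This gave 42 members. A further 7 proteins held the signature outside the length limits and were left out. The choice used sequence alone and no footprint. The deposited transcripts carry no gene names, and members are called P450-1 to P450-42 here, in falling order of mean footprint density (footprints per codon scaled to library size, averaged over the libraries).

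Cytochromes P450 are monooxygenases that bind heme and insert an oxygen atom into their substrates. The thiolate of the signature cysteine is the axial ligand of the heme iron. Most vertebrate members sit in the membrane of the endoplasmic reticulum by a hydrophobic stretch at the amino terminus and take electrons from NADPH-cytochrome P450 reductase, with cytochrome b5 as a second donor, while a mitochondrial class takes them from ferredoxin. In liver they are known for the oxidation of drugs and other foreign compounds, for steps in bile acid and steroid metabolism, and for the oxidation of fatty acids and vitamins.

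Ribosome profiling sequences the stretch of mRNA that a ribosome shields from nuclease, and its count per codon gives ribosome occupancy. Livers of young (5 weeks posthatching), adult (12 weeks) and old (39 weeks) fish were profiled, with 2 libraries per age, each from a pool of 5 to 10 livers by the sample labels or 2 to 10 livers, in equal numbers of males and females, by the study's methods. The ages are those of the series' design, the strain was MZM-0410 unless the methods state otherwise, the labels name no treatment, and the lysis buffer held cycloheximide. Nothing says whether the 2 pools of an age were processed apart, so p-values measure the spread between these pools, and fewer cells of a type, less mRNA and fewer ribosomes per mRNA cannot be told apart in occupancy without matched RNA.

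The libraries held 22617158 to 39738019 footprints. The 10 most abundant transcripts took 25.2% (old library 2) to 62.3% (adult library 2) of them, and the scaling factors of the trimmed mean of M values (TMM) ran from 0.586 to 1.66. Scaling by library totals in place of TMM moved the median log2 fold change of all tested transcripts from 0.07 to 0.93 between old and young and from 0.00 to 0.83 between old and adult. Every fold change below is therefore on the TMM scale, relative to the bulk of transcripts. Without gene names, hepatocyte and other cell type markers could not be checked.

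The signature stretch is shown for members that the results turn on, since it is the sequence that defines them and the stretch at which they can be aligned. Bases run 5′ to 3′ in the coding strand, and the capitals mark the codon of the heme-ligating cysteine.
P450-24: ttctcctcaggccccaggaacTGCatcgga
P450-27: tttggagggggggctcggctcTGCctaggg
P450-15: ttcggcgtgggaaagcgtagcTGCatcggg
P450-26: ttcggagtgggagtccgagccTGTgtgggg
P450-8: tttggagccggtcgtcatcgcTGCatcgga
P450-11: ttttcagcaggtaaacgttttTGTgtagga
P450-17: ttctctgcaggtcctcggatgTGCctcgga
P450-9: ttctctgcaggtcctcggatgTGCctcgga
P450-2: ttctctgcaggtcctcggatgTGCatcggc
P450-1: ttcggggcagggcctaggaacTGCattggg
P450-5: ttttcagctgggctacgaaacTGCataggt
P450-6: tttggtattggcaagaggatgTGCattggt
P450-9 and P450-17 have the same 30 bases here, the only such pair among the 42 members. The cysteine is encoded by TGC in 22 members and by TGT in 20. All 42 members end the signature with a glycine codon, although the rule also allowed alanine and aspartate there.

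Sequence features that the rule did not use marked most members. All 42 carried glutamate and arginine in the spacing E-x-x-R, as in the K helix motif of P450s, 60 to 120 residues before the signature, whereas 22.2% of the 4711 other proteins of 400 to 600 residues carried E-x-x-R in the same window. A hydrophobic start (a 19-residue window of mean Kyte-Doolittle hydropathy of at least 1.6 within the first 60 residues) was found in 36 of the 42 members, or 85.7%, against 18.4% of those other proteins. The 6 members without it were P450-6, P450-15, P450-26, P450-30, P450-31 and P450-33. Members were 487 to 562 codons long with a median of 512, each held the pattern once, and the cysteine stood between 16 codons (P450-26) and 112 codons (P450-9) before the end, with a median of 57.

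Over the 861 pairs of members, the median protein identity was 26.6%, with a range of 20.3% to 84.1%. At over 40% identity, the level by which P450 families are usually drawn, the members fell into 15 groups. The largest group held 16 members and took in P450-2, P450-3, P450-4, P450-9, P450-10, P450-11, P450-12, P450-13, P450-14, P450-17, P450-20 and P450-23. P450-15, P450-26, P450-30 and P450-33, all without the hydrophobic start, formed another group. The members P450-5, P450-6, P450-8, P450-25, P450-27 and P450-31 each stood alone. P450-9 and P450-17 were the closest pair, at 84.1%, followed by P450-20 and P450-37 at 80.3% and P450-2 and P450-9 at 80.1%.

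Close relatives matter for the counts because the authors kept only reads that matched 1 place. In 27 members no run of 28 bases occurred in any other transcript. In 7 members over 5% of such runs did, with 27.3% in P450-9, 22.4% in P450-2 and 15.7% in P450-17. In P450-2, all 85 codons without a footprint lay where the run of 28 bases was shared, and 0 of the 377 other codons were empty. In P450-9, 79.1% of 148 shared codons and 9.11% of 395 other codons were empty. P450-17 was different, since 80.8% of its 433 codons outside shared runs were empty too, and its 10 densest codons held 64.5% of its 7597 footprints. Its occupancy therefore rests on a few short stretches.

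**Figure D1:**
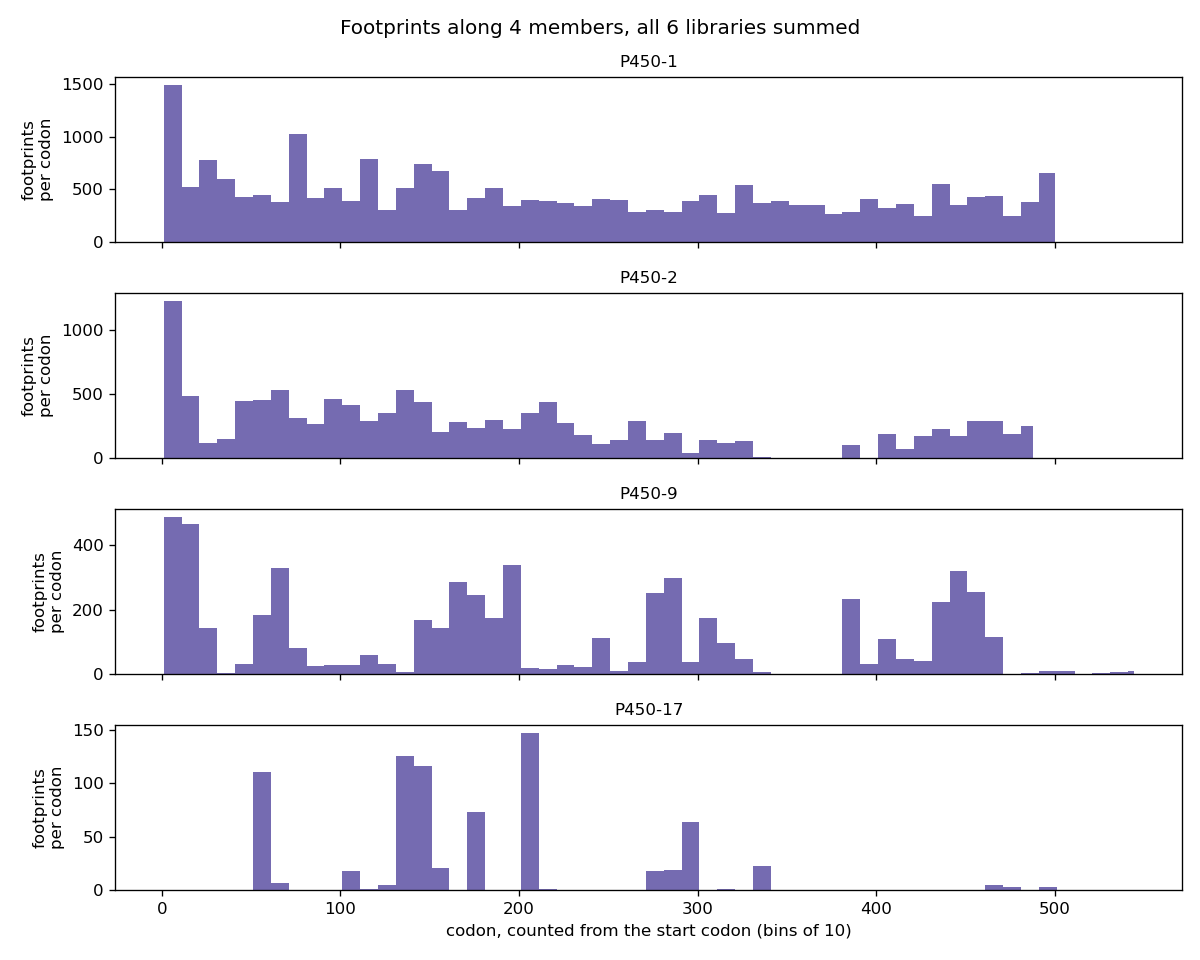
Footprints per codon (vertical axis, all 6 libraries summed) along the coding sequence of P450-1, P450-2, P450-9 and P450-17 (horizontal axis, codon counted from the start, bins of 10 codons). P450-1 has footprints at every codon, P450-2 and P450-9 have empty stretches at codons 333 to 380 and 334 to 382, and P450-17 has footprints in a few stretches only.

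Footprints spread over a wide range of levels. Of the 42 members, 33 had footprints in all 6 libraries and 1, P450-42, had none in any. P450-1 alone took 13.9% to 28.3% of all P450 footprints of a library, and the 5 densest members took 54.3% to 69.2%. Levels are given as TMM-scaled CPM (a member's footprints over the TMM-scaled size of the library), not per length. P450-1 stood at 826 and 1471 in the young libraries, at 1396 and 751 in the adult ones, and at 945 and 702 in the old ones. The 3 ages overlapped for this most densely read member.

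**Figure D2:**
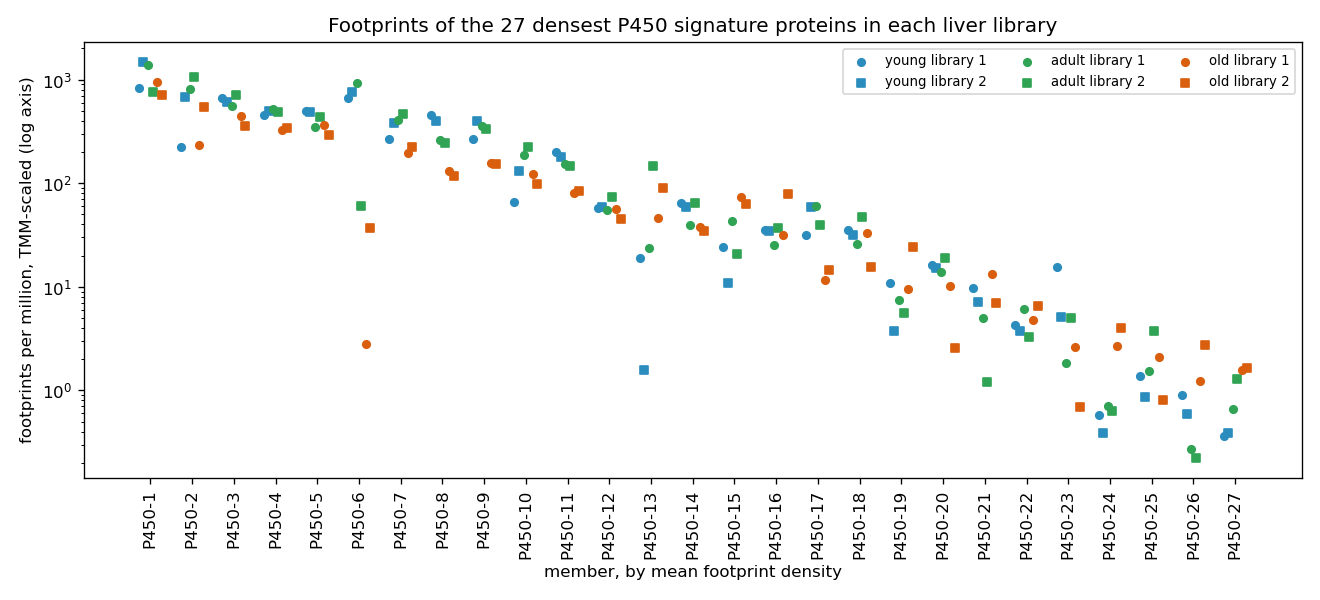
TMM-scaled CPM (vertical, log axis) of the 27 densest members in each of the 6 libraries, coloured by age, with a circle for library 1 and a square for library 2. Old libraries lie lowest for many of the dense members on the left, and P450-6 spans from 2.79 to 931.

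The members next in density differed in how steady they were. P450-3 was at 665 and 612 in young, 549.6 and 713 in adult fish, with 443 and 357 in old. P450-4 was at 456 and 496 in young, 519.8 and 492 in adult fish, with 329 and 339 in old. P450-5 was at 499.6 and 484 in young, 352 and 434 in adult fish, with 364 and 293 in old. In these 3 members both old libraries lay below both young ones, by 0.67, 0.51 and 0.58 on the log2 scale, with adjusted p-values of 0.157, 0.208 and 0.191 in edgeR, past no threshold.
P450-2 varied between the pools of an age and was at 223 and 679 in young, 812 and 1068 in adult fish, with 231 and 539 in old. P450-7 was at 267 and 378 in young, 403 and 468 in adult fish, with 194 and 221 in old. P450-10 was at 65.9 and 132 in young, 186 and 222 in adult fish, with 124 and 98.0 in old. In each of these 3 members both adult libraries were above all others, and the fits gave adjusted p-values of 0.46, 0.53 and 0.253 for adult against young. P450-12, the least dense of the 12, stood at 57.6 and 58.9 in young, 54.8 and 73.8 in adult fish, with 55.9 and 45.0 in old.

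The comparison of old with young asks which P450s changed their occupancy with age. The edgeR quasi-likelihood test was fitted on 15557 transcripts, of which 33 were members, and a call is an adjusted p below 0.05. It called 6 members, 3 higher (P450-24, P450-27 and P450-15) and 3 lower (P450-17, P450-8 and P450-11) in old liver. Over all tested transcripts 11.6% were called, 6.56% higher and 5.01% lower. The 33 are the members that passed a filter on low counts. The other 9, P450-34 to P450-42, held 0 to 46 footprints over all libraries and have no test.

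P450-8, a 498-codon member (transcript Nfu_t_1_010093) with no relative above 40% identity, fell. It stood at 458 and 396 CPM in young, 259 and 247 in adult fish, with 131 and 118 in old. The 3 ages did not overlap, and adult lay between young and old. The log2 fold change of old against young was -1.78 ± 0.25 (SE, 2 libraries per age, adjusted p = 0.017 in edgeR). P450-11, of 493 codons, followed the same order, with 199.6 and 180.5 in young, 154 and 148 in adult fish, with 80.2 and 83.9 in old. Its log2 fold change was -1.21 ± 0.23 (adjusted p = 0.027, edgeR). P450-17 (514 codons, transcript Nfu_t_1_019572) was at 31.5 and 59.4 in young, 60.3 and 39.8 in adult fish, with 11.7 and 14.5 in old. Both old libraries lay below the other 4, and the log2 fold change was -1.80 ± 0.37 (adjusted p = 0.031, edgeR), on the few stretches described above. P450-9, its closest relative, had -1.09 ± 0.28 and an adjusted p of 0.0505 in edgeR, so it was not called, from 267 and 395 in young and 158 and 152 in old.

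Of the 3 members that rose, P450-24 and P450-27 were sparser than every member that fell, and P450-15 was not. P450-24, of 536 codons (transcript Nfu_t_1_033648), was at 0.578 and 0.385 CPM in young, 0.701 and 0.626 in adult fish, with 2.69 and 4.01 in old. Both old libraries were above the other 4, with a log2 fold change of 2.8 ± 0.39 (adjusted p = 0.016, edgeR). P450-27, of 522 codons (transcript Nfu_t_1_006836), rose by 2.10 ± 0.45 (adjusted p = 0.033, edgeR), from 0.361 and 0.385 in young over 0.655 and 1.3 in adult to 1.56 and 1.66 in old. In P450-15, a 511-codon member without the hydrophobic start, the libraries held 24 and 10.9 in young, 42.9 and 20.9 in adult fish, with 73.7 and 62.5 in old. Its log2 fold change was 1.97 ± 0.47 (adjusted p = 0.041, edgeR). The totals behind P450-24 and P450-27 were 367 and 226 footprints over all 6 libraries, where P450-8 held 54375, and their counting error is larger.
Leaving out a young library removed nearly all calls in the data. Without young library 1, 0 members and 2 of 16458 transcripts were called by edgeR, and without young library 2, 0 members and 3 of 16386, with adjusted p-values of 0.107 to 0.208 for the 6 members. P450-8 and P450-24 kept their calls without old library 1 and without old library 2, and the other 4 lost theirs in both, where 9.44% and 5.14% of all transcripts were called.

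**Figure D3:**
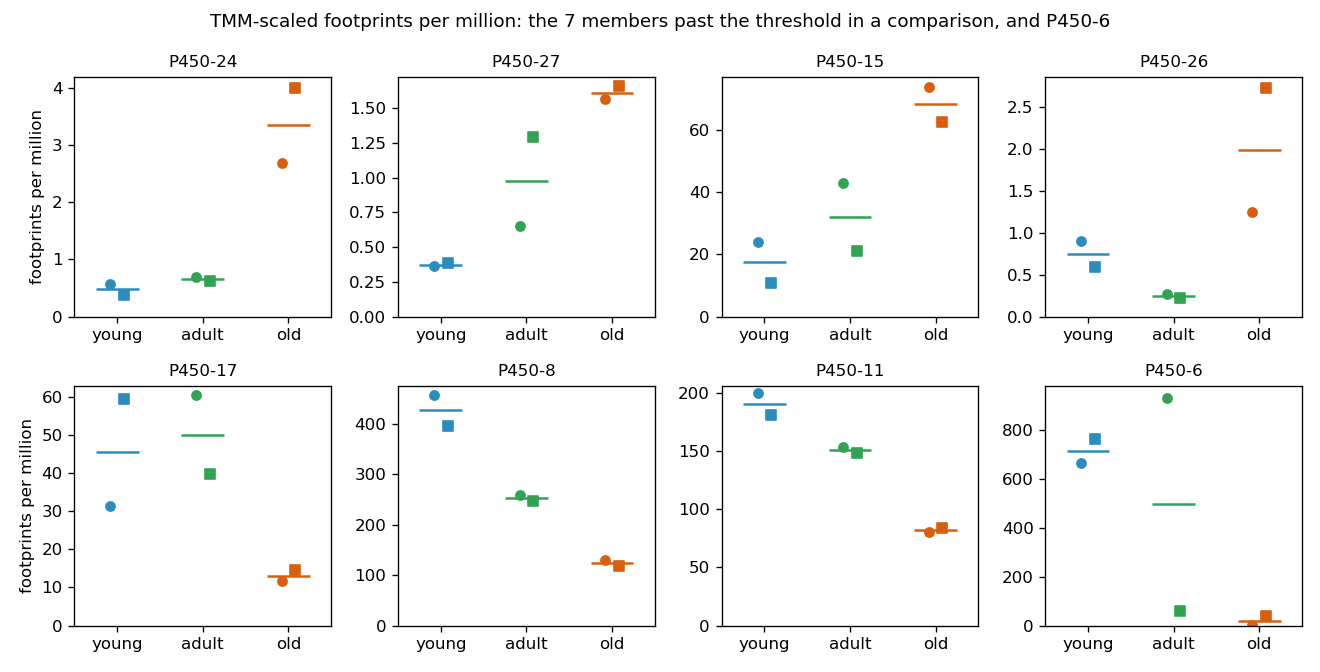
TMM-scaled CPM (vertical axes, linear from 0, a scale of its own in each panel) by age, for the 7 members called in any comparison and P450-6. Points are libraries (circle library 1, square library 2) and lines are means of 2. The old libraries stand above the young in P450-24, P450-27, P450-15 and P450-26 and below them in P450-17, P450-8, P450-11 and P450-6.

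Of the 12 densest members 11 had a log2 fold change below 0 in old against young, with a median of -0.61. In 9 of the 12 both old libraries lay below both young ones. Other transcripts of like density were not set beside the 12. The members next in density, P450-13 to P450-20, went both ways. They had 2.73, -0.78, 1.97, 0.66, -1.80, -0.46, 1.19 and -1.31, in that order. The 21 sparser tested members are not summed up here, since some passed the filter only through the old libraries, such as P450-32 with 1 and 3 footprints in young, 4 and 2 in adult fish, with 11 and 23 in old, while P450-38, with 5 and 10 in young and 1 and 1 in old, did not pass. Over the 33 tested members the median was -0.21, against 0.07 over all tested transcripts. Libraries of the 2 ages did not overlap in 14 members lower in old and 9 higher. Of all tested transcripts 29.3% and 33.7% had such a pattern. The median and both counts over the 33 take in members that passed the filter only through the old libraries, and no result is read from them. The lean of the 12 densest members was not seen in P450-13 to P450-20, and it depends on the scale. With library totals in place of TMM, the fold changes of P450-1, P450-2, P450-3, P450-4, P450-5, P450-7 and P450-12 turned positive, and 10 members were called, 8 higher and 2 lower, in place of 3 and 3. Over all transcripts 21.4% were then called, 20.4% higher and 0.971% lower. P450-24, P450-27 and P450-15 were among them, whereas P450-8, P450-11 and P450-17 were not, at -0.91, -0.34 and -0.96.

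**Figure D4:**
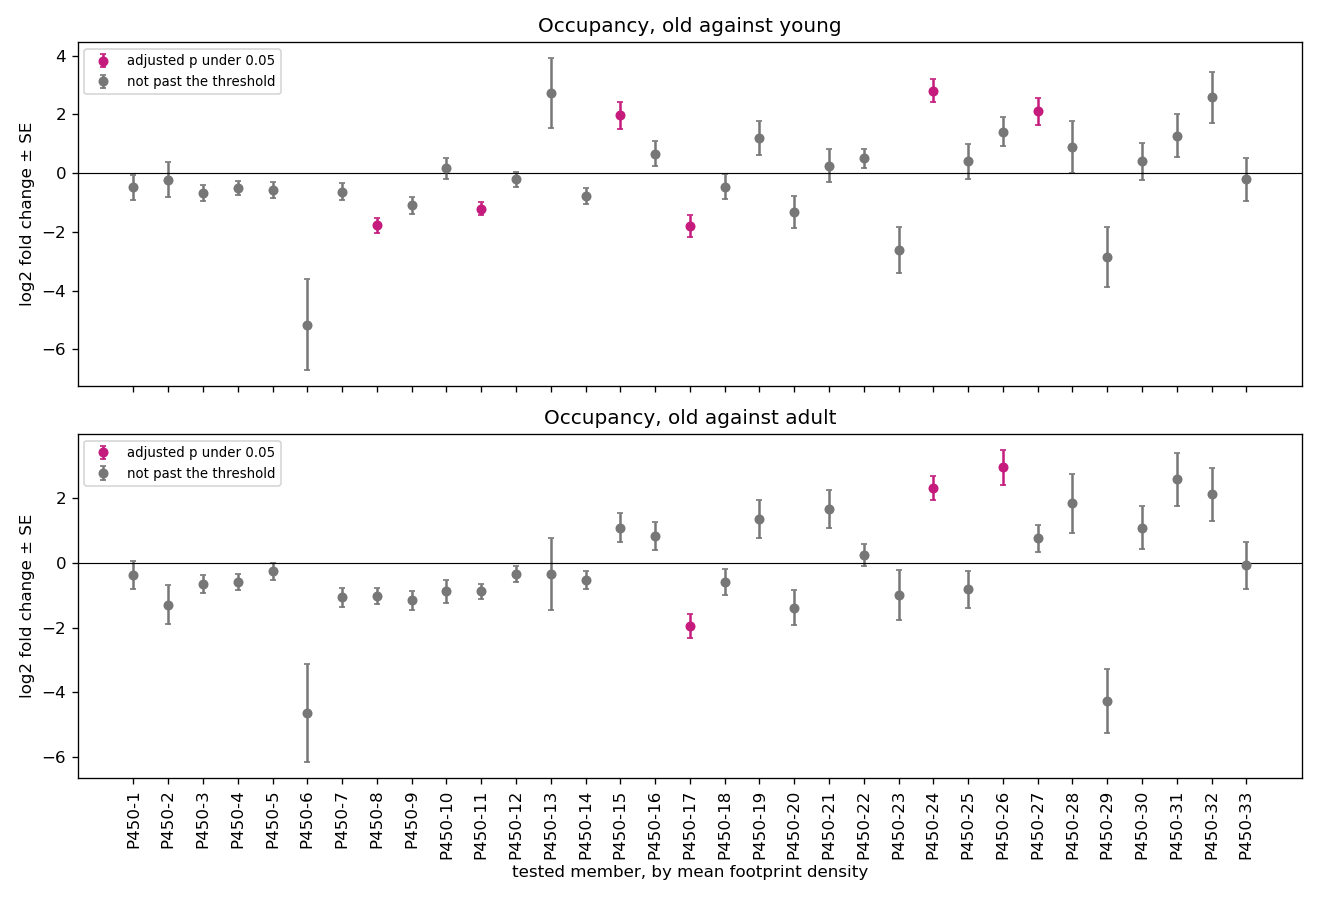
Log2 fold change in occupancy with its standard error (vertical axes) for the 33 tested members, ordered by density, in old against young and old against adult liver (both on the TMM scale, 2 libraries per age). Coloured points passed an adjusted p of 0.05 in edgeR. The 12 densest members lie below 0 in all 12 cases against adult and in 11 against young.

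The old against adult comparison shares its old libraries with the one above. It called 3 members, where 3.82% of all tested transcripts were called (2.37% higher, 1.45% lower). P450-24 and P450-26 were higher and P450-17 was lower. P450-26, a 498-codon member of the group without the hydrophobic start, was at 0.903 and 0.592 in young, 0.271 and 0.224 in adult fish, with 1.24 and 2.73 in old, a log2 fold change of 2.96 ± 0.54 against adult (adjusted p = 0.043, edgeR). Both adult libraries were the lowest of the 6, with 12 and 5 footprints, so counting error is large here too. The fold change of P450-24 was 2.32 ± 0.37 (adjusted p = 0.036) and that of P450-17 was -1.94 ± 0.37 (adjusted p = 0.044), both in edgeR. All 12 densest members had values below 0, from -0.26 to -4.63, none of them called. P450-13 to P450-20 went both ways, from -1.94 in P450-17 to 1.35 in P450-19. The tested members had a median of -0.38 and all transcripts 0.00. In 13 members both old libraries were below both adult ones and in 9 above, where 26.7% and 28.1% of all transcripts showed this. The median and both counts again take in members that passed the low-count filter only through the old libraries, and no result is read from them. With library totals the values of P450-1, P450-3, P450-4, P450-5 and P450-12 turned positive, and 9 members were called higher and 2 lower, where 13.6% of all transcripts were called. Without adult library 1, adult library 2 or old library 2, 0 members were called, where 1.19%, 0.0794% and 0.549% of all transcripts were, and without old library 1 P450-17 was not called (adjusted p = 0.084, edgeR).

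The comparison of adult with young called 0 members in edgeR, where 1.36% of all tested transcripts were called (1.17% higher, 0.186% lower). At an unadjusted p under 0.05 edgeR had 6 of the 33 members, or 18.2%, where it had 14.9% of all transcripts. DESeq2 called 1 member and 634 of 21030 transcripts. The member was P450-8, at 253 ± 8.69 (mean and SD of 2) in adult against 427 ± 43.4 CPM in young. Members had a median log2 fold change of 0.06, and all transcripts of -0.01. In 8 members both adult libraries were above both young ones and in 7 below, and over all transcripts 25.1% and 25.4% had these patterns.

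The largest fold change among the members was not called. P450-6, a dense member that stands alone by identity and lacks the hydrophobic start, was at 662 and 763 in young, 931 and 60.6 in adult fish, with 2.79 and 37.2 in old. Both young libraries and adult library 1 were high, adult library 2 lay nearer to the old libraries, and the 2 old libraries differed from each other as well. The log2 fold change of old against young was -5.16 ± 1.55 (adjusted p = 0.073, edgeR). A fit without adult library 2 was added after the data were seen. It leaves out 1 of the 2 adult libraries that differed in this member, so it is not used as support. The split between the adult pools was rare, since 9 of 3915 transcripts with a mean of at least 10 CPM were over 8-fold higher in adult library 1 than in adult library 2, and 31 were over 8-fold higher in adult library 2. P450-13 varied too, with 18.9 and 1.57 in young, 23.5 and 148 in adult fish, with 46.0 and 89.3 in old, and its log2 fold change of 2.73 ± 1.19 had an adjusted p of 0.169. Which fish made up each pool was not part of the labels, and its part in these differences was not tested.

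Other uncalled members with wide changes were sparse. P450-23 was at 15.5 and 5.09 in young, 1.85 and 4.96 in adult fish, with 2.60 and 0.696 in old, an adjusted p of 0.073 against young. P450-29, whose relative P450-18 (72.3% identity) was at 35.1 and 31.5 in young and 33.0 and 15.4 in old, had 0.181 and 1.24 in young, 1.13 and 2.82 in adult fish, with 0.132 and 0.0535 in old. Its log2 fold change against adult was -4.27 ± 0.99 with an adjusted p of 0.058 (edgeR). The identity group without the hydrophobic start ran from -0.21 in P450-33 to 1.97 in P450-15 on the log2 scale against young, and the largest identity group from -2.61 to 2.73.

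All members together took 0.366% and 0.572% of the footprints in young, 0.694% and 0.317% in adult fish, with 0.454% and 0.551% in old liver. The ages overlapped. These shares move with the few most abundant transcripts. Of the footprints outside the 10 most abundant transcripts, members took 0.927% and 1.1% in young, 1.16% and 0.840% in adult fish, with 0.761% and 0.737% in old, and both old libraries were then the lowest.

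Enzymes that act with P450s were sought by pattern alone, and whether a listed protein acts with them was not tested. The 13 proteins with the cytochrome b5 heme pattern were 136 to 3229 codons long, and 12 were tested. In old against young 1 rose, a protein of 1235 codons, from 0.542 and 0.237 to 1.58 and 1.28 CPM (log2 fold change 1.9, adjusted p = 0.048, edgeR). That is 8.33% of the 12, where 11.6% of all tested transcripts were called. The list median was -0.02. The shortest proteins, of 136 and 138 codons, had -0.69 and -0.31 and were not called (adjusted p = 0.109 and 0.489, edgeR). In adult against young and in old against adult 0 of the 12 were called, where 1.36% and 3.82% of all tested transcripts were. UDP-glycosyltransferases conjugate many P450 products. Of 17 proteins with their pattern, 16 were tested, 1 rose and 4 fell against young, with a median of -0.50. That is 31.25% called, where 11.6% of all tested transcripts were. The 4 that fell had 528, 550, 531 and 529 codons, with log2 fold changes of -3.30, -3.44, -3.55 and -1.51. The first of them was at 49.2 and 78.3 in young, 26.9 and 28.4 in adult fish, with 5.01 and 7.97 in old. The one that rose, of 527 codons, went from 5.49 and 6.22 to 12.6 and 27.3. In adult against young 0 of the 16 were called (1.36% of all transcripts), and in old against adult 1 rose and 1 fell (3.82% of all called).

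Footprints were denser at the start of members than in their interior. The profile was read in 16 members with over 0.5 reads per codon in every library, and 13 of them, with under 5% empty codons, are described. Values are relative to the mean of the interior (the coding sequence without its first and last 20 codons). The first 20 codons held 2.23 to 2.72 across libraries in members. Over 3526 transcripts past the same minimum of reads per codon, they held 1.72 to 1.88. All 13 members were above 1 there, from 1.72 to 3.38. With the interior divided into 10 equal parts, part 1 held 1.26 to 1.44 in members and 1.1 to 1.15 over all those transcripts. Several later parts were low. Part 6 held 0.759 to 0.878 in members against 0.968 to 0.986 over all those transcripts, and part 9 held 0.802 to 0.891 against 0.943 to 0.961. Part 7 held 0.793 to 0.843 against 0.962 to 0.981, and all 13 members were below 1 there, from 0.713 to 0.926. The 2 sets were not matched for depth, length or empty codons and were not compared by a test. Each range is over the 6 libraries of all ages.

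Pausing was read as a pause score, the reads at a codon over the mean reads per codon of the interior. Members P450-1 to P450-20 were covered at the depth the study's rule asks (over 0.5 reads per codon and over 64 reads in each age), which gave 9385 codons. By Fisher's exact test on reads summed per age with Benjamini-Hochberg adjustment, 125 codons of members had increased and 156 decreased pausing in old against young, which is 1.33% and 1.66% of member codons. Over all 2513258 codons tested the shares were 0.366% and 0.438%. The study's rule defines increased sites, and decreased sites were called here by its mirror image. Members were deeper, with a median of 56.2 reads per codon over all libraries against 6.79 over all covered transcripts, and the part of depth in the higher share was not tested. In adult against young 146 codons were increased and 157 decreased, with 0.34% and 0.386% over all codons. In old against adult it was 69 and 95, with 0.253% and 0.296% over all.

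In old against young, 121 of the 125 increased sites (96.8%) and 150 of the 156 decreased sites (96.2%) went the same way in libraries 1 and in libraries 2, where 93.9% and 94.1% of all called sites did. In adult against young it was 126 of 146 and 144 of 157, and in old against adult 69 of 69 and 79 of 95. Sites called on summed reads tend to do so by construction, and same-numbered libraries are not known to be pairs. Fisher's test on summed reads takes no account of library spread. Without young library 2 it called 131 member codons in old against young in place of 281, and 128 in adult against young in place of 303. Without young library 1 it called 353 and 366. Over all codons, with the set of covered transcripts changed, 0.867% and 0.707% were called without young library 2 and 1.33% and 1.27% without young library 1, in place of 0.804% and 0.726%. Without old library 2 it called 90 in old against adult in place of 164, and 0.495% of all codons in place of 0.549%. An edgeR model per codon, which estimates that spread, was fitted on codons with at least 30 reads over all libraries, 4838 of them in members. It called 8 member codons increased and 13 decreased in old against young, a share close to the 0.433% of all codons in that model. In adult against young it called 2 increased and 5 decreased, also close to the share over all (0.15%). In old against adult it called 0 increased and 1 decreased (0.0257% of all). The higher share of members under Fisher's test was thus not seen in this model, which differs in its codons as well as its term for spread. At an unadjusted p under 0.05 the model had 11% of member codons and 10.1% of all codons in old against young.

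Dense members held most of the called sites. Summed over the 3 comparisons, P450-1 had 154, P450-2 had 143, P450-9 had 77, P450-3 had 74 and P450-5 had 53, whereas P450-19 and P450-20 had 0. The counts did not follow density throughout. The denser P450-6 and P450-7 had 28 and 37, fewer than P450-9. P450-6 held 81.0 reads per codon in young and 77.7 in adult, but 2.86 in old, so its comparisons with old had few reads. P450-17 had 35, where P450-16 and P450-18, next to it in density, had 4 each. P450-2, P450-9 and P450-17 have the shared runs and empty codons described above, and the part of these in their counts was not tested. In P450-1 the profile along the codons correlated at 0.883 between the young libraries, 0.861 between the adult and 0.910 between the old, and at 0.758 to 0.856 between an old and a young library. Over codons of a single transcript these correlations are descriptions, since codons are not replicates. P450-3 had 0.816, 0.853 and 0.872 within ages and 0.732 to 0.864 across old and young.

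Of the increased sites in old against young, the one with the largest odds ratio and both pairs in the same direction was codon 160 (GGT, glycine) of P450-9. It had 5 and 0 reads in young, 54 and 33 in adult fish, with 29 and 7 in old, a pause score of 0.147 in young and 1.53 in old (adjusted p = 2.8e-07, Fisher's exact test). Codons 57 (GAC) and 213 (CTG) of P450-14 came next, with 2 against 17 and 2 against 16 reads. The decreased sites with the most extreme odds ratios were codons 175 (CAA), 155 (ACT) and 335 (CTG) of P450-17, at 71, 31 and 28 reads in young and 0 in old. Nearly all of those reads came from young library 2 (68, 30 and 27), adult library 1 held 134, 66 and 12 at the same codons, and young library 1 held 3, 1 and 1, with 0 in adult library 2 and both old libraries.

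The sites named by the same rule in the other comparisons mostly had few reads. In adult against young, codons 89 (AAT) and 412 (GAG) of P450-12 had 0 reads in young and 20 and 14 in adult, and codon 38 (TAC) of P450-18 had 0 and 12. Codon 451 (GCC) of P450-8 went from 72 reads in young to 9 in adult, with pause scores of 1.42 and 0.272. The other decreased sites named by the rule, of 157, were codon 165 (GAG) of P450-12, with 19 and 2 reads, and codon 416 (AAG) of P450-13, with 6 and 3. In old against adult, codons 139 (GAC) and 353 (TAC) of P450-14 had 13 and 17 reads in old against 0 and 1, and codon 132 (AAA) of P450-12 had 20 against 1. Codon 129 (ACG) of P450-18 had 12 reads in adult and 0 in old, codon 250 (CTG) of P450-13 had 12 and 1, and codon 137 (CTC) of P450-15 had 12 and 3.

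Codons at increased sites in old against young were varied. TTT, for phenylalanine, took 9 of the 125 sites (7.2%) in 8 members and made up 3.19% of member codons, and TAT, for tyrosine, took 8 sites (6.4%) in 4 members at 1.09% of codons. Among the 156 decreased sites AAC and GGA took 9 each (5.77%), at 3.12% and 2.30% of codons. These shares were counted after the sites were called and carry no test.

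The signature was asked for pausing because it is the stretch all members share. Over its 10 codons, the mean pause score of the 16 members was 0.966 and 0.946 in young, 0.993 and 1.07 in adult fish, with 0.966 and 0.948 in old. The young mean was 0.956 ± 0.0147 (SD, n = 2), the adult mean 1.03 ± 0.0573 and the old mean 0.957 ± 0.0129. Old and young differed by 0.000873 (exact permutation test, two-sided, p = 1), adult and young by 0.0779 (exact p = 0.333) and old and adult by -0.0771 (exact p = 0.333), with adjusted values of 1, 0.5 and 0.5 over the 3 comparisons. With 2 libraries against 2 the test cannot go below 0.333.

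**Figure D5:**
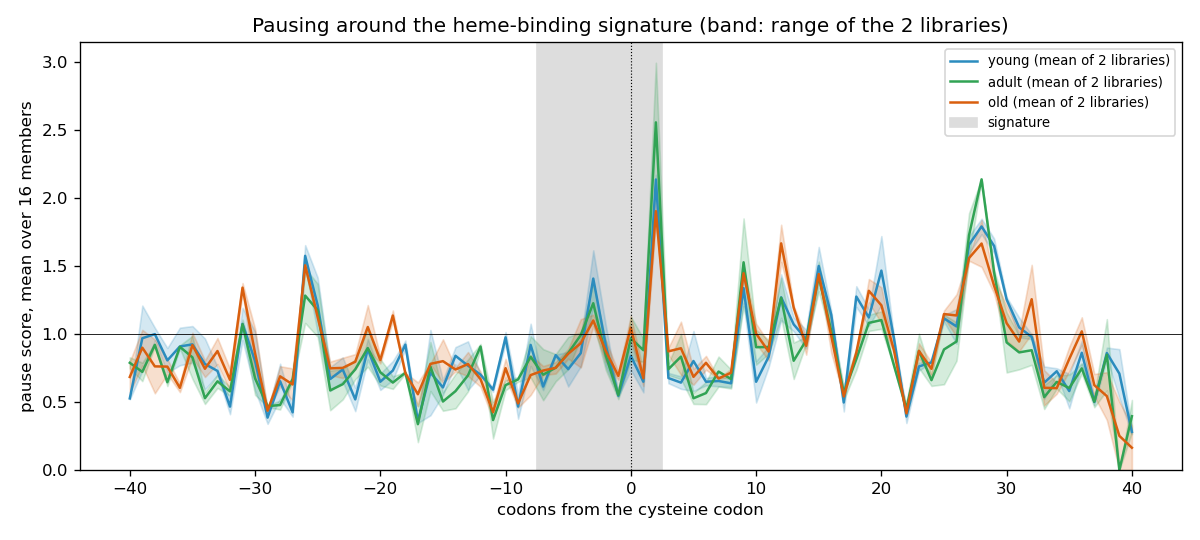
Pause score (vertical axis, mean over 16 members) by distance in codons from the codon of the heme-ligating cysteine (horizontal axis), for young, adult and old liver. Lines are means of 2 libraries, bands the range of the 2, and the grey field is the signature. The peak inside the signature is its last codon, with 1.84 to 3.0 across libraries.

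Within the signature the reads were uneven. The last codon, a glycine codon 2 codons after the cysteine, had the highest mean of the 10 in each library, from 1.84 in old library 1 to 3.0 in adult library 2, with an average of 2.20. Glycine codons elsewhere in the same members had 1.56 to 1.91, and glycine codons of 3505 other covered transcripts had 1.29 to 1.51. In 8 of the 16 members the last codon stood above the member's own other glycine codons. The last codon was at 5.08 in P450-12, 4.88 in P450-8, 4.53 in P450-9, 3.59 in P450-2 and 3.40 in P450-7, and at 1.32 in P450-1 and 0.992 in P450-4. Empty codons lower the interior mean and so raise the pause scores of P450-2 and P450-9. In the 13 members with under 5% empty codons, the last codon had 1.72 to 2.72 and other glycine codons 1.42 to 1.69. It was the higher in 6 of these 13. P450-17, whose signature is base for base that of P450-9, had 0 reads in it, and P450-9 had 1383. Reads that matched both transcripts were not kept, and 82.7% of all codons of P450-17 were empty, so these 2 counts do not compare pausing.

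At the cysteine codon itself the mean was 0.953, with large differences between members. P450-9 had 4.51 and P450-5 had 3.91 there, P450-1 had 1.3, and P450-4 had 0.0532. Within the signature, 6 codons were called in old against young, 5 in adult against young and 3 in old against adult. The signature is 10 codons in each of the 20 covered members, so these counts lie near the shares called of all member codons. Those were 2.99%, 3.23% and 1.75%, where 0.804%, 0.726% and 0.549% of all codons were called. The codons called in old against young were 438 and 444 of P450-8 and 429 of P450-9, which increased. Those that decreased were codon 441 of P450-1, codon 447 of P450-4 and codon 454 of P450-5. The cysteine codon was called once, in P450-1 (codon 444), where it rose from 1.01 in young to 1.61 in adult (140 and 237 reads, adjusted p = 0.0022, Fisher's exact test), a call that was lost in the test stratified by library number (adjusted p = 0.113). In P450-2 the last codon, 432, had a pause score of 3.24 in young, 4.61 in adult and 3.04 in old, and codon 427 had 3.45, 4.73 and 2.89, both called higher in adult than in young and lower in old than in adult. The remaining calls in adult against young were codon 429 of P450-9, from 0.412 to 1.73, and codon 454 of P450-5, from 2.58 to 1.35. In old against adult the remaining call was codon 441 of P450-16, from 3.0 to 0.346. A second raised stretch, picked after the profile was seen, lay 27 to 29 codons after the cysteine. It had a mean of 1.87 at 28 codons and 1.49 to 2.14 across libraries. The median over the 16 members was 1.38, 1.53 and 1.06 at 27, 28 and 29 codons. The codon 15 codons after the cysteine was raised too, with a mean of 1.46 and a median of 1.44. These values include P450-2 and P450-9 with their empty codons.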

How the data were processed

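Ribosome footprints of 6 liver libraries were analysed (young, adult and old, 2 each). Per the labels and the methods, the authors called bases with CASAVA 1.8, trimmed adapters with cutadapt 1.4.2 and, with Bowtie 1.3.1, removed ribosomal RNA reads and aligned the rest to the longest transcript of each gene with 21 flanking nucleotides, keeping reads with up to 2 mismatches that fitted 1 transcript. The methods name a genome build for RNA-seq, and none for the reference library of the footprints. The deposited values are footprint counts per codon, not normalized.

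Members and lists were chosen with earlier results of these data known. Counts from the start to the stop codon were tested with edgeR 4.0.16 in R 4.3.3 (quasi-likelihood, TMM, filterByExpr, all 6 libraries in 1 fit, Benjamini-Hochberg over all transcripts). DESeq2 1.42.0 was an alternative. Pausing used the study's rule for increased sites and its mirror image for decreased ones (Fisher's exact test, first and last 20 codons left out). It was run in Python 3.11.15 with NumPy 2.4.6 and SciPy 1.17.1, and the tests were tried on simulated data. Coverage of shared runs assumed 12 bases from a footprint's end to its codon. Named were the 12 densest members, in each comparison the 6 called with the largest change in each direction, the 5 with most called sites, and the 3 increased and 3 decreased sites with the largest odds ratio and both pairs in 1 direction. The account of P450-6 and the fold changes of P450-13, P450-23 and P450-29 were chosen after their values were seen. So were the members named for their signature codons, the further members named for their site counts, and the raised stretch after the signature. Proteins with a cytochrome b5 pattern and with a UDP-glycosyltransferase pattern were lists of their own. Gene names were not used, as identifiers matched no table.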

Additional observations from a re-analysis of the deposited data

How the results depend on the processing

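The number of members called depended on the scaling, the filter and the libraries. In old against young edgeR called 6 (11.6% of all transcripts), DESeq2 10 (3 higher, 7 lower; 12.5% of all), library totals 10 (21.4% of all), and no filter on low counts 12 (4 higher, 8 lower; 13% of all). In old against adult edgeR called 3 (3.82% of all), DESeq2 10 (2 higher, 8 lower; 8.67% of all), library totals 11 (13.6% of all), no filter 10 (3 higher, 7 lower; 9.06% of all), and a fit of only the 2 ages compared called 0 members and 0 of all 15365 transcripts. In adult against young edgeR called 0, and DESeq2 and library totals called 1 each (3.01% and 2.57% of all). Leaving out 1 library moved the calls as well, as given above, with 1 lone library then assumed to vary like the other ages. The cause of these shifts was not tested.

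The libraries share only a replicate number. Deviations of same-numbered libraries from their age means correlated at -0.03, 0.12 and -0.14 over 15557 transcripts. No clear pairing by number was seen, and 2 libraries per age are too few to test for a weak one. With the replicate number as a block, 4 members were called in old against young, 0 in adult against young and 0 in old against adult, with 952, 28 and 1 of 15557 transcripts called. P450-11 and P450-17 lost their calls against young, and P450-17, P450-24 and P450-26 theirs against adult. The stratified test of pausing with that block called 229 member codons in old against young, 236 in adult against young and 128 in old against adult. That is 2.44%, 2.51% and 1.36% of member codons, where 0.682%, 0.583% and 0.470% of all codons were called.

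With library totals the log2 fold changes of old against young turned to 0.32 in P450-1, 0.62 in P450-2, 0.18 in P450-3, 0.35 in P450-4, 0.27 in P450-5, 0.22 in P450-7 and 0.64 in P450-12. Those of old against adult turned to 0.29 in P450-1, 0.21 in P450-3, 0.22 in P450-4, 0.60 in P450-5 and 0.53 in P450-12, and adult against young to 0.029 in P450-1. Totals without the 10 most abundant transcripts gave 0.089 in P450-2 and 0.095 in P450-12 against young, 0.15 in P450-5 and 0.067 in P450-12 against adult, and, in adult against young, -0.0015 in P450-4 and -0.017 in P450-9. Leaving out 1 library in turn, values that changed sign ran over -1.02 to 0.78 for P450-2 (old against young), -0.25 to 0.74 for P450-10 (old against young), -0.61 to 0.38 for P450-1 (adult against young), -0.22 to 0.16 for P450-3 (adult against young), -3.55 to 0.39 for P450-6 (adult against young), -0.19 to 0.37 for P450-9 (adult against young), -0.090 to 0.34 for P450-12 (adult against young), and -0.77 to 0.060 for P450-1 (old against adult). None of these values was called. The share of footprints, without those 10 transcripts (added after the data were seen), differed by -0.267 percentage points between old and young and -0.0167 between adult and young, in place of 0.0335 and 0.0361.

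In pausing, the edgeR model called 21, 7 and 1 codons in place of 281, 303 and 164, and leaving out 1 library gave 131 to 353, 128 to 366 and 90 to 183. At the signature, old minus young was -0.0327 by the median over members, -0.0017 with over 1 read per codon, and -0.0095 to 0.0113 leaving out 1 library. Depth limits pausing to the 20 densest members, and the per-codon counts of the sparse ones among them are small.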
